A study of Mus musculus with 6 samples.

Results

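Chemokines are small secreted proteins that direct the migration of cells, and with their receptors they form a family of genes with related names. All protein-coding genes of the count table whose symbol begins with Ccl, Cxcl, Cx3cl, Xcl, Ccr, Cxcr, Cx3cr, Xcr or Ackr followed by a digit were taken, which gave 60 of 43346 genes. Of these, 37 encode ligands, 19 encode signaling receptors and 4 encode atypical receptors. A further 3 genes with matching names, annotated as pseudogenes, were left out by this rule. RNA-seq measured polyadenylated RNA of mouse adult fibroblasts (MAFs), primary cells grown from ear tissue of C57BL6/J females of adult age at 3% oxygen and used between passages 3 and 8. The 3 senescent samples had received 20 Gy of x-rays and 21 further days of culture, and the 3 control samples were sham irradiated. All 6 samples, control cells included, were treated with 100 nM dexamethasone, a glucocorticoid that aligns the circadian clocks of cultured cells, for 2 hours and were collected 12 hours later, so each value describes a single time after a hormone treatment. The comparison asks which chemokine genes change when fibroblasts become senescent. Whether the replicates were separate isolates or cultures is not given in the sources used here, so p-values measure the spread between these samples alone, which may be technical.

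Ligands are sorted by the spacing of the first cysteines of the mature protein into CC, CXC, CX3C and XC chemokines. They bind receptors that span the membrane repeatedly and that signal through inhibitory G proteins, and they are held on the cell surface by heparan sulfate. CC ligands such as *Ccl2* draw monocytes, CXC ligands that carry the Glu-Leu-Arg (ELR) motif draw neutrophils, and *Cxcl12* retains blood-forming cells in their niches. Atypical receptors bind chemokines without classical G protein signaling and remove or transport them. Fibroblasts are known as a source of ligands in inflamed tissue, whereas most of the receptors are studied in leukocytes. Chemokines are also among the secreted proteins of the senescence-associated secretory phenotype.

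Total counts lay between 50288454 and 82229553 per library. Senescent replicate 3 stood apart from the other senescent samples, with squared count differences of 25.9 and 37.8 times the chance value (median over genes) against senescent replicates 1 and 2, which differed from each other by 2.34 times. The cyclin-dependent kinase inhibitor gene *Cdkn1a* was at 121, 125 and 124 CPM in control replicates 1, 2 and 3 and 611, 638 and 609 CPM in senescent replicates 1, 2 and 3, in the order used for all values. CPM are counts relative to library size, scaled for composition by the trimmed mean of M values (TMM). The 10 fibroblast markers checked had a summed level between 63760 and 65730 CPM in control and between 47960 and 53450 CPM in senescent libraries, most of it from *Fn1*. Of these markers, 3 were higher and 5 lower in senescent cells, beside 36.2% and 34.1% of all tested genes. The 8 leukocyte markers summed to between 0.920 and 1.78 CPM in control and between 41.7 and 50.7 CPM in senescent cells, most of it from *Cd53* (41.8 ± 5.21 CPM in senescent cells, SD, n = 3). *Ptprc*, which encodes the leukocyte antigen CD45, was at 0.181 ± 0.0618 and 1.39 ± 0.166 CPM (SD, n = 3 per group), while *Cd52* had 0 counts in all libraries and *Tyrobp* was at 0.00790 CPM or below on average. In bulk RNA, a few cells with much of an RNA and many cells with little of it cannot be told apart.

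Of the 60 genes, 29 had enough counts for a test (the filter of edgeR, about 10 counts, or 0.173 CPM, in at least 3 libraries). Of these, 22 (75.9%) were higher in senescent cells, 1 was lower and 6 did not pass an adjusted p of 0.05 (quasi-likelihood test of edgeR, adjusted by Benjamini-Hochberg over all 17589 tested genes). Among all tested genes, 36.2% were higher and 34.1% lower by the same rule. At the threshold given in the study's methods, which asks for more than a 2-fold change and a p below 0.05 before adjustment, 17 members (58.6%) were higher and 0 lower, beside 17.8% and 12.3% of all tested genes. In 21 of the 29 genes (72.4%), every senescent value lay above every control value, and 38.4% of all tested genes showed that pattern. A group of 10 members passed the count filter through the senescent samples alone and had to differ for that reason. They were *Ccl8*, *Ccl20*, *Cxcl2*, *Cxcl15*, *Cxcr4*, *Cxcr6*, *Ccr1*, *Cx3cr1*, *Ackr1* and *Ackr4*, and their p-values below are no separate support. Among the 19 members that passed in control cells, 12 (63.2%) were higher and 1 was lower, with a median log2 fold change of 0.78. For all 15644 genes that passed in control cells, 30.9% were higher, 38.4% were lower and the median was -0.09. By the methods threshold, 7 of the 19 (36.8%) were higher, beside 10.4% of those genes. The 60 genes held between 0.0437% and 0.0442% of the counts in control libraries and between 0.0823% and 0.0833% in senescent libraries.

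**Figure D1:**
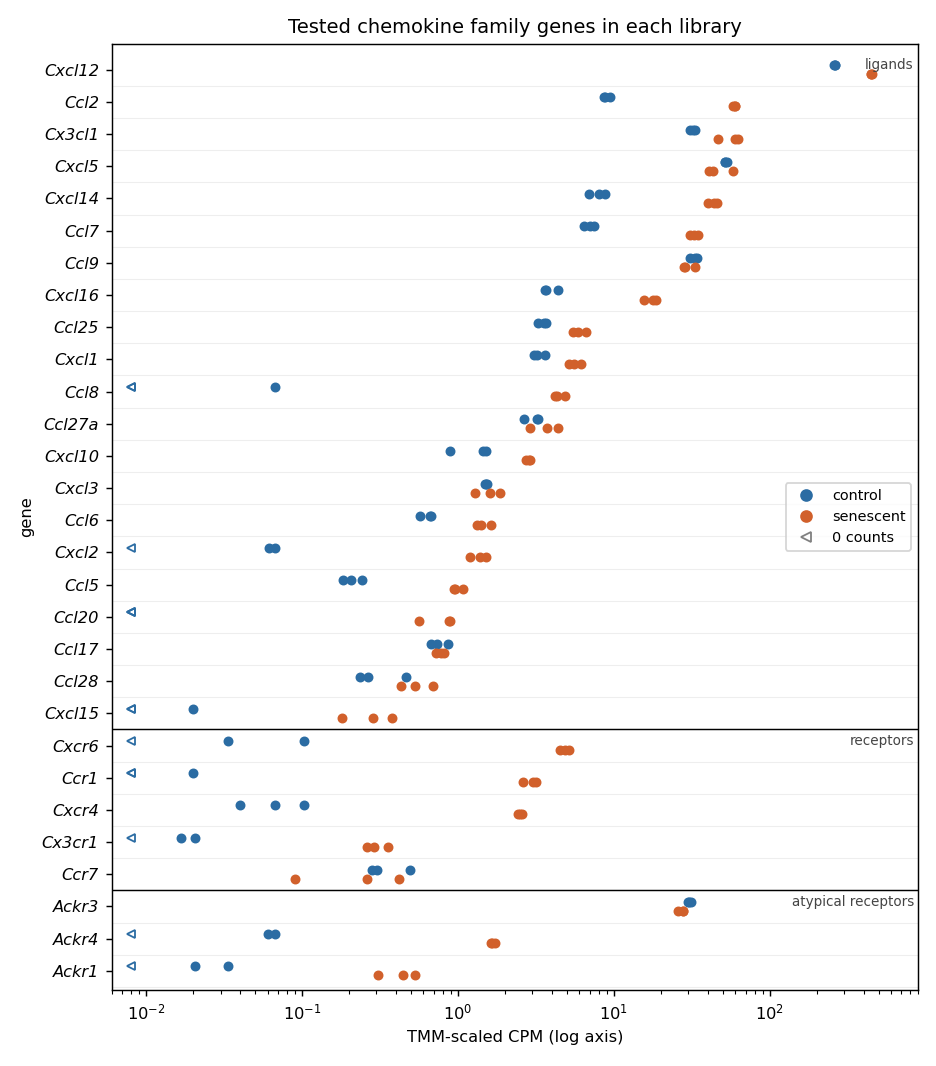
Level of each tested chemokine family gene in each library, in TMM-scaled CPM on a log axis. Blue points are the 3 control and orange points the 3 senescent samples, and open triangles at the left edge mark 0 counts. Control points lie left of all senescent points for 21 of the 29 genes, and the signaling receptors other than *Ccr7* move from near 0 to between 0.261 and 5.12 CPM.

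The CC ligands of a cluster on chromosome 11 that draw monocytes and eosinophils gave some of the highest senescent levels. *Ccl2* (ENSMUSG00000035385, chromosome 11 from 82035571 to 82037453 of mm10) encodes the main attractant of monocytes and was at 8.64, 8.84 and 9.44 CPM in the control samples and 59.9, 60.3 and 58.0 in the senescent ones. *Ccl7* (chromosome 11 from 82045712 to 82047525), a close relative that acts on the same receptor and on others, was at 7.04, 6.46 and 7.44 CPM without irradiation and 32.5, 30.6 and 34.9 CPM in senescence. The samples of each group lay close together and far from those of the other group in both genes, with log2 fold changes of 2.73 (SE 0.07) and 2.23 (SE 0.09; adjusted p = 3.07e-08 and 3.41e-07, edgeR). *Ccl8* (chromosome 11 from 82115185 to 82116799) had 0, 4 and 0 counts in control and 233, 340 and 412 counts in senescent libraries, or 4.20, 4.29 and 4.88 CPM. It was nearly silent in control cells, and the ratio of the pooled levels was 178 (95% interval 69.4 to 656), where the interval covers counting error alone (adjusted p = 1.97e-06, edgeR). All 4 control counts lay in control replicate 2, without which the controls were at 0 and the fitted log2 fold change went from 7.36 to 11.15 (adjusted p = 1.14e-05, edgeR). *Ccl8* passed the filter through the senescent samples alone.

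The remaining genes of this cluster stayed at or near 0. *Ccl11*, which encodes the eosinophil attractant eotaxin, had 0, 0 and 0 counts in control and 11, 7 and 17 counts in senescent libraries. This was below the filter, and without a filter the gene passed the adjusted threshold (adjusted p = 0.000615, edgeR). With 0 counts in control, only a rise could be called. *Ccl12* had 1, 0 and 5 and *Ccl1* 0, 0 and 1 counts in senescent libraries. A nearby cluster on chromosome 11 holds the macrophage inflammatory proteins and *Ccl5*. *Ccl5*, which encodes RANTES, an attractant of T cells and monocytes, rose from 0.241, 0.184 and 0.204 CPM to 1.08, 0.959 and 0.948 CPM (log2 fold change 2.24, SE 0.20, adjusted p = 3.06e-05, edgeR). *Ccl6*, a ligand of rodents, rose from 0.662, 0.669 and 0.572 CPM to 1.32, 1.40 and 1.64 CPM (log2 fold change 1.19, SE 0.16, adjusted p = 0.000302, edgeR). Its neighbor *Ccl9* (chromosome 11 from 83572919 to 83578636), also a ligand of rodents, was expressed at 34.4, 33.2 and 30.9 CPM in controls, beside 28.3, 28.7 and 33.3 CPM in the senescent samples, and these groups overlapped (adjusted p = 0.219, edgeR). Without senescent replicate 3, *Ccl9* was lower in senescent cells, with a log2 fold change of -0.20 (adjusted p = 0.00573, edgeR). *Ccl3* and *Ccl4*, which encode the inflammatory proteins MIP-1α and MIP-1β, had at most 2 counts in any library.

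The 5 ELR-type CXC ligands among the members lie within 146.6 kb of chromosome 5, in the order *Cxcl5*, *Cxcl3*, *Cxcl15*, *Cxcl1* and *Cxcl2*. Only some of them passed the test. *Cxcl5* (chromosome 5 from 90759299 to 90761625) was the most abundant of them in both groups, at 51.4, 53.4 and 51.3 CPM in the control samples and 40.5, 43.6 and 58.0 in the senescent ones. Senescent replicates 1 and 2 lay below all control samples and senescent replicate 3 above them, so the groups overlapped (adjusted p = 0.371, edgeR). Without senescent replicate 3, *Cxcl5* was lower in senescent cells, with a log2 fold change of -0.30 (adjusted p = 3.76e-05, edgeR). *Cxcl3* was at 1.504, 1.49 and 1.53 CPM without irradiation and 1.28, 1.60 and 1.85 CPM in senescence, with a wider spread in the senescent group and overlapping values (adjusted p = 0.682, edgeR). *Cxcl1* (chromosome 5 from 90891241 to 90893115) rose from 3.23, 3.08 and 3.60 CPM to 5.12, 5.53 and 6.11 CPM, a log2 fold change of 0.76 (SE 0.11, adjusted p = 0.000445, edgeR). *Cxcl2* (chromosome 5 from 90903899 to 90905909) had 0, 4 and 3 counts in control and 84, 94 and 117 counts in senescent libraries, a ratio of pooled levels of 30.5 (95% interval 14.6 to 76.5), with an adjusted p of 2.18e-05 (edgeR). *Cxcl15*, known from the lung, had 1, 0 and 0 and 10, 30 and 24 counts in control and senescent libraries (adjusted p = 0.000534, edgeR). The ratio of its pooled levels was 46.3 (95% interval 8.02 to 1858) and rests on 1 control count, and the fitted log2 fold change went from 5.13 to 7.25 without control replicate 1. Both *Cxcl2* and *Cxcl15* passed the filter through the senescent samples alone. Of the 50-base stretches of *Cxcl2* transcripts in GENCODE M21, 5.84% occur also in *Cxcl3*, so a small part of their reads could have been shared.

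The start regions of neighboring ELR genes are shown because 3 of them, with different changes, hold the same letters. RefSeq start regions (250 bases before and 50 after the start of transcription, GRCm38.p6, which shares its coordinates with mm10) were matched for 42 of the 60 genes. They were searched on both strands for a motif of NF-κB (GGGA and TTCC with 2 bases between them), the AP-1 motif (TGACTCA), the canonical E-box of BMAL1 (CACGTG) and an interferon-stimulated response element (ISRE, GAAA repeated after 2 bases). The other 18 genes, *Ccl2*, *Ccl7*, *Ccl5*, *Cxcl5* and *Cxcl16* among them, were not analysed here. Capitals mark every match.
*Cxcl3* (chr5:90785851-90786150, plus strand): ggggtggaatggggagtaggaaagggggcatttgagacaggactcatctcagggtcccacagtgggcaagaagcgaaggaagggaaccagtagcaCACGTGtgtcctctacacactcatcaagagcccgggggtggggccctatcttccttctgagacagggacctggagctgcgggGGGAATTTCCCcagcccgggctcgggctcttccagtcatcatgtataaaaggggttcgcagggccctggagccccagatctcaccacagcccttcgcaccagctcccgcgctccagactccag
*Cxcl1* (chr5:90890995-90891294, plus strand): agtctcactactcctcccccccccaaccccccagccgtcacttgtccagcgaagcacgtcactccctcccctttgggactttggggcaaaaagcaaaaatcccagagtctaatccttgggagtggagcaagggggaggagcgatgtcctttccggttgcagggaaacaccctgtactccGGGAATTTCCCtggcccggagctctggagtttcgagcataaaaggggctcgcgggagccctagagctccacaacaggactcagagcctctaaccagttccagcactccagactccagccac
*Cxcl2* (chr5:90903649-90903948, plus strand): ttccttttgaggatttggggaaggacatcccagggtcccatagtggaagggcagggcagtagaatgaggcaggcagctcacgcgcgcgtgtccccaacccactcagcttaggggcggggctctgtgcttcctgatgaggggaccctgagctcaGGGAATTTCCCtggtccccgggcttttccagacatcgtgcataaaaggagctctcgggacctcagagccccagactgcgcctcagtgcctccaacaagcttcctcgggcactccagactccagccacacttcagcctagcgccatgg
*Cxcl1*, *Cxcl2* and *Cxcl3* each carried the run GGGAATTTCCC, in which the NF-κB letters match on both strands in overlapping positions. It began at base -71 relative to the start site in *Cxcl1*, at -97 in *Cxcl2* and at -73 in *Cxcl3*. *Cxcl3*, whose level did not pass the test, also held a CACGTG. A match of letters is a description of the sequence and not evidence of a factor there, and no binding was measured in these samples.

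Across the members, the NF-κB letters stood in 5 of 42 start regions (11.9%), against 1.47% of all 32851 start regions of RefSeq. The AP-1 letters stood in 6 (14.3%, against 5.20%), the E-box in 2 (4.8%, against 7.15%) and the ISRE in 3 (7.1%, against 3.44%). Each member was counted with a single start region, the nearest to its gene start, whereas the RefSeq shares cover every start region. The units are thus not alike. The 5 members with NF-κB letters include the neighbors *Cxcl1*, *Cxcl2* and *Cxcl3*, which hold the same run. Of the 18 genes that rose and had a start region, 3 held the NF-κB letters, 2 the AP-1 letters, 2 the ISRE and 0 the E-box. Of the other 24, 2 held the NF-κB letters, 4 the AP-1 letters, 1 the ISRE and 2 the E-box. *Cxcl10* was the member with matches to the most motifs, and its start region is given for that reason.
*Cxcl10* (chr5:92348840-92349139, minus strand): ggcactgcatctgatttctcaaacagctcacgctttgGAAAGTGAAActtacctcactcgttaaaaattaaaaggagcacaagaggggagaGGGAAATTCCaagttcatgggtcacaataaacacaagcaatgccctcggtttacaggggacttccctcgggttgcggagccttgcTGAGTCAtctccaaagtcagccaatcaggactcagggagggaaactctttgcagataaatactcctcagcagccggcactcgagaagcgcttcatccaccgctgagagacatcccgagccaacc
*Cxcl10* (chromosome 5 from 92346638 to 92348889) encodes an interferon-inducible attractant of T cells that acts through CXCR3. It was at 1.504, 0.887 and 1.45 CPM in controls, beside 2.74, 2.90 and 2.87 CPM in the senescent samples, without overlap (log2 fold change 1.16, SE 0.19, adjusted p = 0.000841, edgeR). *Cxcl9*, its neighbor with the same receptor, had 2, 4 and 0 counts in control and 10, 11 and 18 counts in senescent libraries and stayed below the filter. Exons of *Art3* overlap those of *Cxcl10* on the opposite strand. *Art3* had 11, 8 and 10 counts in control and 17, 38 and 21 counts in senescent libraries.

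*Cxcl12* (ENSMUSG00000061353, chromosome 6 from 117168535 to 117181367), which encodes the stromal ligand of CXCR4, had the highest count of the family in every library. Its values were 264, 259.8 and 260.4 CPM in the control samples and 445, 447 and 452 in the senescent ones. The spread within each group was small beside the difference, and the gene rose 1.71-fold (log2 fold change 0.78, SE 0.05, adjusted p = 3.65e-06, edgeR), which is below the fold change of 2 in the methods threshold. *Cxcl14* (chromosome 13 from 56288647 to 56296551), a ligand made constitutively in skin, rose further, from 6.94, 8.07 and 8.73 CPM to 44.2, 46.2 and 40.4 CPM (log2 fold change 2.46, SE 0.10, adjusted p = 4.40e-07, edgeR). The B cell attractant gene *Cxcl13* had at most 4 counts in a library, and *Cxcl17* had 2, 4 and 4 counts in control and 4, 8 and 11 counts in senescent libraries.

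The only members made as membrane-anchored ligands, *Cxcl16* and *Cx3cl1*, were both higher. *Cxcl16* (chromosome 11 from 70453983 to 70459984), the ligand of CXCR6, was at 3.63, 3.65 and 4.35 CPM without irradiation and 18.8, 17.8 and 15.7 CPM in senescence (log2 fold change 2.17, SE 0.11, adjusted p = 1.41e-06, edgeR). Exons of *Zmynd15* overlap those of *Cxcl16* on the opposite strand, and *Zmynd15* itself had 13, 9 and 23 counts in control and 76, 120 and 106 counts in senescent libraries. *Cx3cl1* (chromosome 8 from 94772009 to 94782423), which encodes fractalkine, was at 30.9, 32.4 and 32.9 CPM in controls, beside 59.5, 62.4 and 46.7 CPM in the senescent samples. Senescent replicate 3 was the lowest of its group and still above all control samples (log2 fold change 0.81, SE 0.11, adjusted p = 0.000292, edgeR). *Adam17* and *Adam10* (*Adam10* was picked after its value was seen), which encode the proteases known to shed both ligands, were lower in senescent cells, with log2 fold changes of -0.95 (SE 0.06) and -0.28 (SE 0.10). *Adam17* was at 134 ± 1.33 (control) and 69.6 ± 3.16 CPM (senescent; SD, n = 3 each).

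Other CC ligands changed less or were rare. *Ccl20* (chromosome 1 from 83116766 to 83119167), which acts on CCR6 and is made by epithelia, had 0, 0 and 0 counts in control and 31, 70 and 74 counts in senescent libraries. It was at least 13.5-fold higher than the limit of 3 counts per library that 0 counts allow, counting error only (adjusted p = 0.000142, edgeR). It was the only 1 of the 24 members with 0 counts in all control libraries to reach the filter, which can be set beside 2.75% of all protein-coding genes at 0 in control. This gene, too, passed the filter through the senescent samples alone. *Ccl25*, known from thymus and gut, rose from 3.55, 3.68 and 3.25 CPM to 5.43, 5.86 and 6.62 CPM (log2 fold change 0.77, SE 0.11, adjusted p = 0.000404, edgeR). Exons of *Elavl1* overlap those of *Ccl25* on the opposite strand. *Elavl1* had 4262, 4750 and 4020 counts in control and 6049, 8561 and 10313 counts in senescent libraries. The part of *Elavl1* reads in the *Ccl25* value was not tested. *Ccl28*, a ligand of mucosal epithelia, was at 0.461, 0.234 and 0.266 CPM in the control samples and 0.433, 0.530 and 0.687 in the senescent ones. Control replicate 1 lay above senescent replicate 1, and the call (adjusted p = 0.0475, edgeR) was lost under DESeq2 (0.0587), with a replicate block (0.0855) and without control replicate 2 (0.163), control replicate 3 (0.137), senescent replicate 2 (0.0742) or senescent replicate 3 (0.108). *Ccl17*, which draws T cells, had overlapping groups (adjusted p = 0.924, edgeR), at 0.862, 0.736 and 0.674 CPM without irradiation and 0.812, 0.719 and 0.782 CPM in senescence. *Ccl27a*, a ligand of skin, was at 2.67, 3.21 and 3.27 CPM in controls, beside 3.72, 4.37 and 2.90 CPM in the senescent samples, with overlapping groups (adjusted p = 0.200, edgeR, and 0.00679 with a log2 fold change of 0.42 without senescent replicate 3). Of the 50-base stretches of its transcripts, 45.0% occur in other genes, so its counts are uncertain.

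Levels of different genes were compared per kilobase of exon, with the lengths given in the count table. On this scale the ligands summed to between 115 and 117 CPM per kilobase in control libraries and between 254 and 266 in senescent libraries. In control cells, *Cxcl12* (31.8 to 32.3) and *Cxcl5* (31.0 to 32.3) led with overlapping values, followed by *Ccl9* (10.1 to 11.3). *Ccl7* (8.06 to 9.29), *Cx3cl1* (8.33 to 8.88) and *Ccl2* (7.59 to 8.30) came next. In senescent cells, *Cxcl12* (54.4 to 55.3) lay above *Ccl2* (51.0 to 53.0), *Ccl7* (38.3 to 43.5) and *Cxcl5* (24.5 to 35.1). *Cxcl5* and *Cxcl14* (22.2 to 25.3) overlapped. The share of the summed ligand level held by *Cxcl5* was between 26.6% and 27.9% in control and between 9.63% and 13.2% in senescent libraries, while that of *Ccl2* went from between 6.59% and 7.11% to between 19.2% and 20.7%. *Cxcl12* held between 27.3% and 28.0% in control and between 20.8% and 21.4% in senescent libraries although its own level was higher there.

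**Figure D2:**
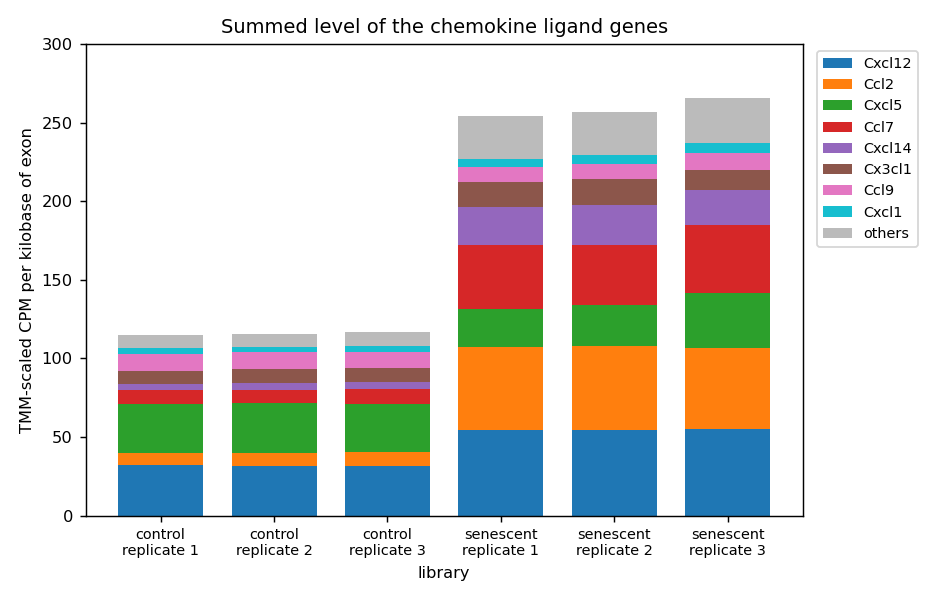
Summed level of the 37 chemokine ligand genes in each library, in TMM-scaled CPM per kilobase of exon, with the 8 genes of the highest summed level in color and the others in gray. The bars reach between 115 and 117 in the control and between 254 and 266 in the senescent libraries, and the parts for *Ccl2*, *Ccl7* and *Cxcl14* widen, while *Cxcl5* lies between 24.5 and 35.1 in all 6 libraries.

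Of the 19 signaling receptor genes, 5 had enough counts for a test and 4 of them rose, all from near 0, beside 36.2% of all tested genes. These 4 passed the filter through the senescent samples alone and so had to differ. *Cxcr4* (ENSMUSG00000045382, chromosome 1 from 128588199 to 128592293), the receptor for CXCL12, had 2, 4 and 5 counts in control and 142, 193 and 210 counts in senescent libraries. The senescent level was 2.56, 2.44 and 2.49 CPM, and the ratio of the pooled levels was 35.9 (95% interval 19.9 to 72.3), with an adjusted p of 5.93e-07 (edgeR). *Cxcr6* (chromosome 9 from 123806477 to 123811754), the receptor for CXCL16, had 0, 2 and 5 counts in control and 268, 358 and 432 counts in senescent libraries, a ratio of 109 (95% interval 52.9 to 273). *Ccr1* (chromosome 9 from 123962126 to 123968692), a receptor for several inflammatory CC ligands, had 1, 0 and 0 and 145, 240 and 269 counts in control and senescent libraries. Its ratio of 473 rests on 1 control count and has a 95% counting interval of 84.7 to 18730. *Cx3cr1* (chromosome 9 from 119901616 to 120068283), the fractalkine receptor, had 0, 1 and 1 counts in control and 16, 28 and 22 counts in senescent libraries, a ratio of 23.9 (95% interval 6.36 to 201). Without control replicate 1, the fitted log2 fold change of *Ccr1* went from 8.48 to 10.60, and without control replicate 3 that of *Cxcr6* went from 6.71 to 7.90. The adjusted p of *Cxcr6*, *Ccr1* and *Cx3cr1* was 1.50e-06, 6.86e-07 and 0.000189 (edgeR). *Ccr7*, which guides dendritic and T cells to lymph nodes, was at 0.281, 0.301 and 0.490 CPM in the control samples and 0.0902, 0.416 and 0.261 in the senescent ones, with overlapping groups (adjusted p = 0.472, edgeR).

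Per kilobase, these receptors lay far below the leading ligands. The signaling receptors summed to between 0.171 and 0.388 CPM per kilobase in control and between 5.16 and 5.59 in senescent libraries. *Cxcr6* reached 2.55, *Cxcr4* 1.38 and *Ccr1* 1.04 CPM per kilobase in senescent cells on average, where *Cxcl12* was at 54.8. Because these receptors are best known from leukocytes, the marker lists of leukocytes were set beside them. Of 8 general leukocyte markers, 6 were tested, 4 were higher (*Cd53*, *Ptprc*, *Itgb2* and *Laptm5*), 0 were lower, and *Coro1a* and *Fcer1g* gave no call. Of 8 macrophage markers in the table, 4 were tested and all 4 were higher, among them *Lyz2* (0.256 ± 0.159 CPM in controls, 4.52 ± 0.547 CPM in senescence, SD, n = 3 each) and *Csf1r* (1.99 ± 0.131 and 3.91 ± 0.480 CPM), and their sum went from between 5.89 and 6.64 to between 13.1 and 15.2 CPM. The complement genes *C1qa*, *C1qb* and *C1qc*, which mark tissue macrophages, were at 0 or a mean of at most 0.00996 CPM. None of 7 lymphocyte markers had enough counts for a test, with a sum of at most 0.429 CPM in any library and with *Cd3e* at 0 in control cells. Of 5 neutrophil markers only *S100a8* was tested and it was higher, at 1.31 ± 0.0773 CPM in senescent cells (SD, n = 3), while *Ly6g* and *Mpo* had 0 counts in control and at most 0.00841 CPM in senescent cells on average. The neutrophil markers summed to at most 0.0335 CPM in any control library. *S100a8* thus passed the filter through the senescent samples alone and had to differ. The endothelial markers moved the same way, with 4 of 6 tested and 4 higher. They summed to between 2.43 and 2.86 CPM in control and between 7.54 and 8.34 CPM in senescent cells. Keratinocyte markers summed to between 2.76 and 3.58 CPM in control and between 7.43 and 9.73 CPM in senescent libraries, with 1 of 3 tested genes, *Krt15*, higher. Of all tested genes, 36.2% were higher and 34.1% lower by the same rule. The part of other cell types in the receptor values was not tested.

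The atypical receptors did not all rise. *Ackr3* (chromosome 1 from 90203980 to 90216751), which takes up CXCL12, was by far the highest receptor gene of the family in control cells, at 29.8, 30.6 and 31.5 CPM, and was at 27.7, 28.0 and 25.8 CPM in senescent samples. The groups did not overlap, but the difference was small, with a log2 fold change of -0.17 (SE 0.07) and an adjusted p of 0.0443 (edgeR). This call did not hold under relative log expression (RLE) scaling (0.0680), scaling by library size alone (0.230) or the exact test (0.0677). The call was also lost under DESeq2 (0.0827), without a filter (0.0857), with 10 counts in every library (0.123) and with a replicate block (0.123; edgeR for the last 3). Nor did it hold without control replicate 1 (0.0739), 2 (0.119) or 3 (0.149) or without senescent replicate 1 (0.0857) or 2 (0.0716). It held without senescent replicate 3 (0.0382). *Ackr4* (chromosome 9 from 104084157 to 104126933), which takes up CCL19, CCL21 and CCL25, had 3, 4 and 0 counts in control and 96, 129 and 139 counts in senescent libraries, a ratio of 37.6 (95% interval 18.1 to 94.3), with an adjusted p of 8.91e-06 (edgeR). Exons of *Acad11* overlap those of *Ackr4* on the opposite strand. *Acad11* had 1813, 2227 and 1732 counts in control and 1774, 2376 and 2617 counts in senescent libraries. *Ackr1*, known as the Duffy antigen of venules and red cells, had 0, 2 and 1 and 17, 35 and 45 counts, a ratio of 23.4 (95% interval 7.77 to 116), with an adjusted p of 0.000219 (edgeR). Of the 50-base stretches of *Ackr1* transcripts, 20.4% lie also in the overlapping gene *Cadm3* on the same strand, and *Cadm3* had 7, 12 and 4 counts in control and 205, 291 and 274 counts in senescent libraries. Without control replicate 2, the fitted log2 fold change of *Ackr1* went from 4.39 to 5.17. How much of the *Ackr1* value comes from *Cadm3* reads was not tested. Both *Ackr4* and *Ackr1* passed the filter through the senescent samples alone. *Ackr2*, a scavenger of inflammatory CC ligands, had 0, 0 and 1 and 6, 14 and 15 counts and stayed below the filter. Per kilobase, the atypical receptors summed to between 8.91 and 9.43 CPM in control and between 8.46 and 9.04 CPM in senescent libraries, nearly all of it from *Ackr3*.

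Ligands and known receptors were then placed side by side, for a selection of pairs that left out *Ackr1* and *Ackr2*. Both partners rose for *Cxcl12* and *Cxcr4*, *Cxcl16* and *Cxcr6*, *Cx3cl1* and *Cx3cr1*, *Ccl25* and *Ackr4*, and for *Ccl5*, *Ccl6* and *Ccl7* with *Ccr1*. These 5 receptors passed the filter through the senescent samples alone. *Ackr3*, which also binds CXCL12, was lower in the main fit, a call that most other settings lost, and *Ccl9*, another ligand of CCR1, gave no call. In other pairs, some with the same ligands, the ligand rose and the receptor gene was at or near 0. *Ccr2*, the receptor for CCL2 and CCL7, had 0, 0 and 0 counts in control and 0, 2 and 1 counts in senescent libraries. *Cxcr2*, the receptor of the ELR ligands, had 0, 0 and 0 and 1, 2 and 3 counts, and *Cxcr3*, the receptor of CXCL10, had 0, 0 and 0 and 1, 4 and 3 counts. The counts of *Ccr6*, *Ccr9* and *Ccr10*, which receive CCL20, CCL25 and CCL28, were at most 6 in any library. RNA levels do not show whether a receptor protein was present.

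Neighboring genes differed in both the size and the presence of a change. In the chromosome 11 cluster of 6 genes from *Ccl2* to *Ccl1*, which spans 270.1 kb, 3 genes were tested and all 3 rose. The next cluster, of 5 genes over 138.9 kb, had 3 tested genes, of which *Ccl5* and *Ccl6* rose. *Ccl9*, which lies between them, gave no call. In the chromosome 5 cluster of ELR ligands, 3 of 5 members rose. On chromosome 9, 8 receptor genes lie within 469.3 kb, and *Cxcr6* and *Ccr1* rose while the other 6 had at most 15 counts in any library. Of all tested genes, 36.2% were higher by the same rule. *Ccl8*, *Cxcl2*, *Cxcl15*, *Cxcr6* and *Ccr1* passed the filter through the senescent samples alone and had to differ for that reason. *Xcr1*, which lies between *Cxcr6* and *Ccr1*, had 3, 3 and 1 counts in senescent libraries, and *Ccr1l1*, next to *Ccr1*, had 0, 0 and 1.

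**Figure D3:**
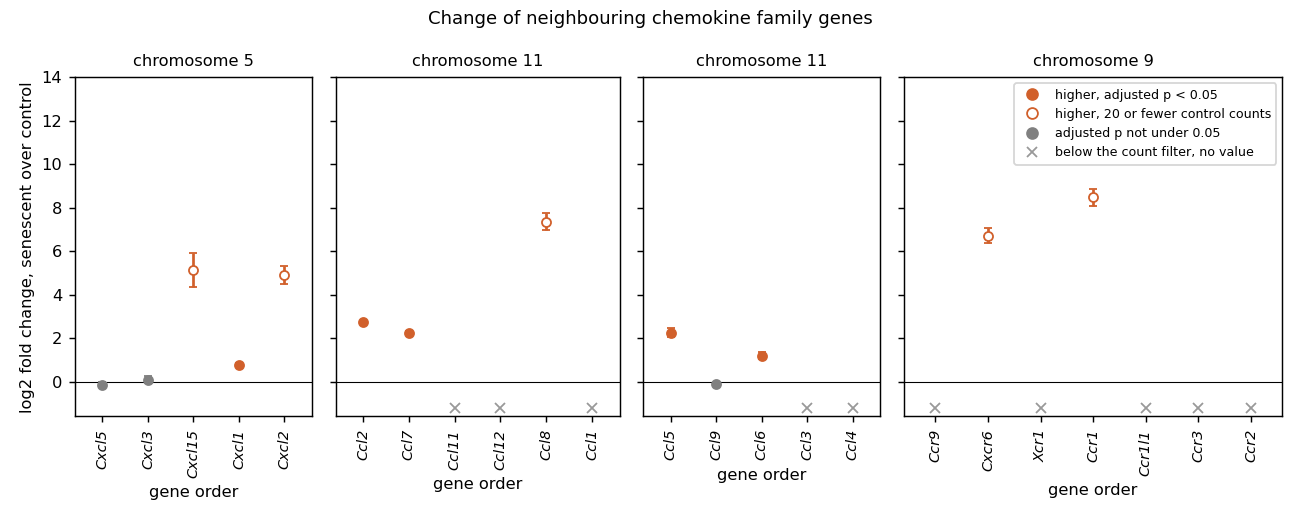
Log2 fold change, senescent over control, with its standard error, for neighboring genes of 4 clusters in genome order, 7 of them on chromosome 9. Filled orange points are genes higher at an adjusted p under 0.05, open orange points are such genes with 20 or fewer control counts, whose fitted value depends on a small number of reads, gray points gave no call, and crosses at the foot mark genes below the count filter without a value. In all 4 clusters, rising genes stand beside genes that gave no call or were below the filter.

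The other 31 genes, 16 ligands, 14 signaling receptors and 1 atypical receptor, stayed below the filter. *Ccl21a*, *Ccl21b*, *Ccl26* and *Xcl1* had 0 counts in all 6 libraries, which allows up to 3 counts in each, or a mean of 0.0572 CPM over the controls and 0.0425 CPM over the senescent libraries. *Ccl27b* had 1 count, in control replicate 3. The copies *Ccl21a*, *Ccl21b*, *Ccl19* and *Ccl27b* share between 52.0% and 100% of their 50-base stretches with other genes, so their reads could have been left out or assigned elsewhere. A group of 20 of the 31 genes had at most 3 counts in every library, among them the receptor genes *Cxcr1*, *Cxcr2*, *Ccr2*, *Ccr4*, *Ccr6*, *Ccr8* and *Ccr10* and the ligand genes *Ccl3*, *Ccl4*, *Ccl19*, *Ccl22* and *Ccl24*. Of the 16 of them with any count, 0 passed an adjusted p of 0.05 without a filter (edgeR), and 3 (*Ccl22*, *Xcr1* and *Cxcr2*) had an unadjusted p under 0.05, of 0.0329, 0.0389 and 0.0479. The others had up to 4 counts in a control and 18 in a senescent library. Without a filter on counts, 7 of these genes passed an adjusted p of 0.05 as higher (*Ccl11*, *Ackr2*, *Ccr3*, *Cxcl9*, *Ccr9* and *Cxcr5* among them, edgeR). By the same rule, 7705 of all 29776 genes tested without a filter were higher. With so few counts in control, these members could hardly have been called lower. *Ccr3*, the eotaxin receptor gene, had 0, 0 and 0 counts in control and 4, 8 and 15 counts in senescent libraries.

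Between 27 and 29 of the 60 genes had at least 1 count in a control library and between 48 and 53 in a senescent library. At the depth of the smallest library the expected numbers were 27.0 to 29.0 and 46.3 to 49.4. More genes were detected in senescent libraries over the whole table too, with 21394 to 21568 genes expected at that depth in control and 24827 to 25101 in senescent cells. Of the 24 members with 0 counts in all control libraries, 20 (83.3%) had a count in senescent cells, beside 48.8% of the 5522 protein-coding genes at 0 in control.

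The signaling machinery below the receptors changed in both directions. A list of 93 genes for G proteins, kinases, arrestins and regulators of G protein signaling was written from general knowledge. Among the 78 that could be tested, 37 (47.4%) rose and 19 (24.4%) fell at an adjusted p under 0.05 (edgeR), beside 36.2% and 34.1% of all tested genes, with a median log2 fold change of 0.21 beside 0.01 for all tested genes. The genes with the smallest p among those higher were regulators of G protein signaling, which shorten receptor signals. *Rgs16* rose from 0.599 ± 0.172 to 32.8 ± 2.26 CPM (SD, n = 3 per group), *Rgs2* rose by 2.88 (SE 0.09) on the log2 scale, and *Rgs5* went from 0.708 ± 0.159 to 11.4 ± 0.555 CPM. Among those lower, *Stat3* and *Pik3r3* changed by -0.75 (SE 0.06) and -0.99 (SE 0.09) on the log2 scale.

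Genes that process or present chemokines also moved in both directions, with 6 higher (40.0%) and 8 lower (53.3%) of 15 tested, beside 36.2% and 34.1% of all tested genes. The share of higher genes was near that of all genes. *Ext1*, which builds heparan sulfate chains, rose by 1.33 (SE 0.05), and its partner *Ext2*, picked after its value was seen, fell by 0.69 (SE 0.10) on the log2 scale. The syndecan genes, whose proteins carry these chains at the cell surface, did not share a direction (*Sdc3* and *Sdc4* were picked after their values were seen). *Sdc2* rose by 1.23 (SE 0.08) and *Sdc3* by 0.38 (SE 0.10), *Sdc1* fell by 0.96 (SE 0.11) and *Sdc4* gave no call (443, 458 and 457 CPM in controls, 416, 438 and 405 CPM in senescence). *Dpp4*, which encodes a peptidase that trims the ends of several ligands, rose by 0.85 (SE 0.19), and *Tpst1*, which encodes a sulfotransferase that modifies receptor tyrosines, fell by 0.89 (SE 0.06). Of 9 genes related to the family but outside its naming rule, 8 were tested. *Ccrl2*, *Cmklr1* (*Cmklr1* and *Ppbp* were picked after their values were seen) and *Rarres2* were higher, with log2 fold changes of 2.66, 0.32 and 1.59, as was *Gpr35* (1.31 ± 0.196 to 3.69 ± 0.360 CPM, SD, n = 3 each), and *Rarres2* and *Cmklr1* encode the attractant chemerin and its receptor. *Ccrl2* had 6, 4 and 2 counts in control and 32, 34 and 40 counts in senescent libraries. It passed the filter through the senescent samples alone and so had to differ. *Cklf*, *Mif* and *Pitpnm3* were lower, with log2 fold changes of -0.77, -1.13 and -1.52. *Ppbp*, a platelet CXC ligand that lies near the ELR-type members of the family, was at 3.53 ± 0.286 (control) and 3.94 ± 0.337 CPM (senescent; SD, n = 3 each). It gave no call, and *Pf4* was below the filter.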

How the data were processed

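RNA from 3 control and 3 senescent MAF samples was sequenced from stranded polyadenylated mRNA libraries. The authors deposited raw read counts per gene, made with Subread on mm10 per the labels. The strand setting and the handling of reads that match several genes are not given in the sources used here. Counts were fitted for the whole table with edgeR 4.0.16 in R 4.3.3 (filterByExpr, TMM, robust quasi-likelihood, group as the only term), as the study's methods name edgeR, with Benjamini-Hochberg adjustment. Total counts of 50288454 to 82229553 set the precision, and intervals and floors cover counting error only, since reads without molecular identifiers are not independent molecules. An exact permutation test of 3 against 3 samples cannot go below 0.1 and was not used. Members were reported in full, with the exception given at the end. Of the other lists, the 3 genes with the smallest p in each direction were named, and the few named beyond them are marked in the text. The members and lists were chosen with earlier results of these data known. Alternatives were RLE or library-size scaling, other filters, the exact test, DESeq2 1.42.0, a replicate block and leaving out each sample. Pseudogenes were left out, and shared 50-base stretches were counted in GENCODE M21 transcripts. No protein sequences were used here. The values of a few single genes, members and listed genes alike, are not reported here.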

Additional observations from a re-analysis of the deposited data

How the results depend on the processing

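Of the 23 members called, 21 kept their direction and call under every alternative that could test them, the exceptions being *Ackr3* and *Ccl28*. Among these 21 were the 10 members that passed the filter through the senescent samples alone. They had to differ for that reason, and the filter of 10 counts in every library could not test them. Over members and settings, 341 of 366 values were the same, 18 lost the call, 3 gained it and 4 reversed. The values of these 10 members are part of the 366 and are no separate support. With at least 10 counts required in every library, 18 members were tested and 12 were higher at an adjusted p under 0.05, beside 5151 of all 15205 genes tested. By the methods threshold, 7 were higher. With no filter, 56 were tested and 29 were higher at an adjusted p under 0.05, beside 7705 of all 29776 genes tested, and 28 were higher by the methods threshold. The shares of all genes by the methods threshold were not counted for these filters. No member (0) was lower under RLE scaling, library-size scaling, no filter, the filter of 10 counts, the exact test, DESeq2 or the replicate block. At an adjusted p under 0.05, 22 to 25 members were higher and 0 to 3 lower when single samples were left out, with the 3 (*Cxcl5*, *Ccl9* and *Ackr3*) found without senescent replicate 3. By the methods threshold 17 to 21 were higher and 0 lower, and the share of all genes by that threshold was not counted for these fits. For all genes, 5930 to 7052 were higher and 5284 to 6643 lower, and for the downstream signaling list 34 to 43 and 17 to 25. *Cxcl3*, without a call, reversed to -0.0404 on the log2 scale without senescent replicate 3, and left-out samples gave -0.0404 to 0.1981. *Ccl17*, also without a call, reversed to -0.0021 without control replicate 2, to -0.0571 without control replicate 3 and to -0.0086 without senescent replicate 1 (range -0.0571 to 0.1164). The cause was not tested. Same-numbered samples did not deviate together (correlations of -0.145, 0.135 and -0.12), so the numbers were not taken as pairs. The fit with a replicate block gave 21 members higher at an adjusted p under 0.05, beside 5964 of all 17589 genes tested. The median log2 fold change of all genes was 0.01 with TMM, 0.03 with RLE and 0.09 with library-size scaling.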
